A study of Mus musculus with 4 samples.

Results

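The transcripts of 10 circadian clock genes were followed through single CD4 T cells of the mouse small intestine. They were chosen by name, not by a cut on a measured value, from the 31053 genes of the deposited matrices, but with earlier results of these data known. The genes were Arntl (also known as Bmal1), Clock, Per1, Per2, Nr1d1, Nr1d2, Dbp, Tef, Nfil3 and Bhlhe40. All 10 were found in the 4 matrices, and 8 of them passed the filter on low counts and were tested. The cells were living CD45+CD3+CD4+ lymphocytes sorted from the lamina propria, the connective tissue beneath the gut epithelium, of untreated wild-type C57Bl/6 mice, after removal of Peyer's patches and digestion with collagenase. The 4 libraries (replicates 1 to 4) belong to 1 group of 4 mice. Neither the age of the mice nor the hour of harvest was given in the sources used here, and no source ties a library to exactly 1 mouse. Replicates are therefore called libraries, and p-values set a gate difference within libraries against how much gate differences varied from library to library. That spread was estimated over all 5 gates together, with information shared among genes.

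The circadian clock is a transcriptional loop. The proteins of Arntl and Clock pair and bind E-box sequences, which switches on the Per and Cry genes, whose proteins return to block that pair, and the genes of the nuclear receptors REV-ERBα and REV-ERBβ (Nr1d1 and Nr1d2), which repress Arntl through elements that they share with the ROR receptors. A further arm runs through D-box sequences, where the PAR bZIP activators DBP, TEF and HLF compete with the repressor NFIL3 (also called E4BP4). Several of these factors have other roles in T cells: Nfil3 and the REV-ERB receptors are known for their part in Th17 cell biology, and Bhlhe40 is induced by the T cell receptor and shapes cytokine production.

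The cells analysed numbered 21501 of 22904 barcodes, between 5149 and 5626 per library, with median depths of 3630 to 4173.5 UMIs (unique molecular identifiers, each standing for 1 captured transcript). Pairs of libraries had 34 to 55 cell barcodes in common. T cell identity was clear, with Cd3e at 1809 to 1954 CPM (the UMIs of a gene among 1000000 UMIs) and Cd4 at 349 to 379 CPM in every library. The 23 markers of B, plasma, myeloid, epithelial, stromal, mast and erythroid cells summed to 286 to 584 CPM, mainly Jchain (46.4 to 351 CPM) and Cst3 (131 to 138 CPM), with Col3a1 and Hbb-bs at 0 in all 4 libraries. Library 4 stood apart in the heat shock gene Hspa1a, at 34.0 CPM against 4.45 to 6.22 CPM in the others. Libraries were alike in Xist (635 to 701 CPM) and had no UMI of the Y-linked genes Ddx3y and Eif2s3y.

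Cells were divided by the first condition they met: at least 1 UMI of Foxp3, the factor of regulatory T cells; at least 1 UMI of Il17a, the Th17 cytokine; at least 1 UMI of Ifng, the Th1 cytokine; at least 10 UMIs of Gzma, a granzyme; and the rest. These gates held 1535, 586, 6599, 1746 and 11035 cells. A gate is not a cell type: a regulatory T cell without a captured Foxp3 transcript fell into another gate, and 549 of the Foxp3 cells and 220 of the Il17a cells met a later condition too. Cells of the gates differed in depth, with medians of 4483 UMIs in the Foxp3, 5215.5 in the Il17a, 3964 in the Ifng, 3576.5 in the Gzma and 3745 in the rest gate. In the Gzma gate Cd8a stood at 98.4 CPM, against 10.5 CPM in the rest, despite the sort on CD4. Cd8b1 stood at 18.7 CPM there against 9.20 CPM in the rest, and Cd4 at 391 against 358 CPM. Cd8a and Cd8b1 together ranged from 54.1 to 215 CPM over the libraries of the Gzma gate.

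RefSeq start-site windows (GRCm38.p6, 250 bases before to 50 after the start, so that the start is base 251) were matched by symbol for 8 of the 10 genes. They are shown for Nfil3 and Arntl, which were both higher in Il17a cells, for Tef, which was lower there, and for Per1, whose level differed between libraries. Capitals mark the ROR element TAGGTCA in Nfil3 (on the reverse strand, from base 239) and Arntl (from base 281), and the E-box CACGTG in Tef (from base 124) and Per1 (from base 85), with bases counted from 1 at the 5′ end. Of the 13 windows of these 8 genes only 5 held any match. Those shown were picked from them, and the other is a second Tef window with an E-box from base 113. A second Per1 window and another Arntl window held none, and neither did those of Nr1d1, Nr1d2, Dbp and Clock.
Nfil3, chr13:52980990-52981289, minus strand: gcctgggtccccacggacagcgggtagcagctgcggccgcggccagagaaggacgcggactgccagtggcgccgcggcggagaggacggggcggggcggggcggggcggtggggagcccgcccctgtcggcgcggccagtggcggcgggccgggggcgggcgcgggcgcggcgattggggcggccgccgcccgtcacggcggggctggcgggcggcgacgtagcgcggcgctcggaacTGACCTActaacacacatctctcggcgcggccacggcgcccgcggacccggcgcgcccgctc
Arntl, chr7:113207261-113207560, plus strand: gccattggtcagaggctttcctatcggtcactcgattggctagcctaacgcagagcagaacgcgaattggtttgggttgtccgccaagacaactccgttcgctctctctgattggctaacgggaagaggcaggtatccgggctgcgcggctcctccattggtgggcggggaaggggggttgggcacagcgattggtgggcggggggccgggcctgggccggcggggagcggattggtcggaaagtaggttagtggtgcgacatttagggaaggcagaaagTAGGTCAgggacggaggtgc
Tef, chr15:81802423-81802722, plus strand: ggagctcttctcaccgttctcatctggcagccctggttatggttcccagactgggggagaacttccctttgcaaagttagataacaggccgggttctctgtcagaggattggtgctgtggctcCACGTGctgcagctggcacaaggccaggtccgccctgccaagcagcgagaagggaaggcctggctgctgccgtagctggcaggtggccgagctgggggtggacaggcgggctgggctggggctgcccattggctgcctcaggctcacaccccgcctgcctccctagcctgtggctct
Per1, chr11:69098699-69098998, plus strand: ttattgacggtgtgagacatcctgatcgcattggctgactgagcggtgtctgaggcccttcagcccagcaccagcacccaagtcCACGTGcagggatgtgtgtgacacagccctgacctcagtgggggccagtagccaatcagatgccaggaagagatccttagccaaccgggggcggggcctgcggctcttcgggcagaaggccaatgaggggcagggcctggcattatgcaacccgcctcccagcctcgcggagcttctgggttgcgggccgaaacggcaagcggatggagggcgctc
Both strands were searched for 4 motifs, and each window shown holds 1 match, so that no matches overlap. The element TAGGTCA was present in 2.61% and CACGTG in 7.15% of all 32851 windows of this length, and the other motifs, the D-box (TTATGTAA or TTACGTAA, 1.06%) and the cyclic AMP element TGACGTCA (1.79%), were in none of the 13 windows of these genes. A match describes letters and was not measured as a binding site.

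The clock genes differed widely in how much transcript was captured. UMIs count molecules tagged once at the 5′ end, so CPM was not divided by gene length, and the order of genes also depends on how well each transcript is captured. Bhlhe40 (chromosome 6, 108660629 to 108666925, mm10) stood far above the rest at 848 ± 128 CPM (SD, n = 4 libraries), followed by Per1 at 119 ± 24.5 CPM. Arntl at 39.2 ± 0.892, Nr1d2 at 34.5 ± 3.03, Nfil3 at 29.5 ± 9.20 and Clock at 20.2 ± 1.10 CPM made a middle group, in which the range of Nfil3 (20.4 to 37.8 CPM) overlapped those of Nr1d2 (31.8 to 37.3 CPM) and Clock (19.0 to 21.7 CPM). The D-box activators were lower, Tef at 11.9 ± 1.05 and Dbp at 10.3 ± 1.20 CPM, with overlapping ranges. The negative-limb genes Nr1d1, at 2.12 ± 0.158 CPM, and Per2, at 1.90 ± 0.161 CPM, were close to the limit of what these libraries can measure: they rested on 42 to 60 and 41 to 52 UMIs per library, and their exact 95% Poisson intervals (1.37 to 2.91 CPM for Nr1d1 and 1.20 to 2.72 CPM for Per2 over all libraries) overlapped in each library. These intervals cover counting error only.

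**Figure D1:**
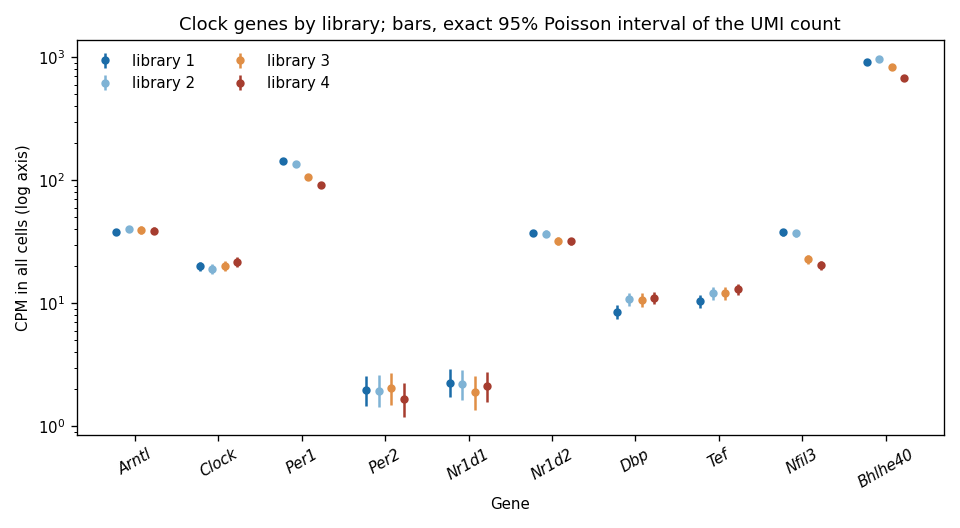
Level of each clock gene in all cells of each library, in CPM on a log axis; points are libraries and bars the exact 95% Poisson interval of the UMI count. Bhlhe40 lies at 677 to 972 CPM and Nr1d1 and Per2 near 2 CPM, and the 4 Arntl points nearly coincide.

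Since libraries may come from different hours, the spread between libraries was described gene by gene, with no test because the labels name 1 group. Arntl, whose transcript cycles strongly in most tissues, stood at 38.1, 40.3, 39.5 and 39.0 CPM in libraries 1 to 4, a coefficient of variation of 2.28%, which is below the 3.24% that counting alone gives. Clock varied by 5.42%, near the median of 5.30% over the 5766 genes with a mean of at least 20 CPM. Nr1d2 stood at 37.3, 36.9, 31.9 and 31.8 CPM. The PAR bZIP gene Dbp, an E-box target, stood at 8.48, 10.8, 10.7 and 11.1 CPM and Tef at 10.4, 12.02, 12.1 and 13.0 CPM. Library 1 was the lowest for both, and the libraries differed by 1.30-fold and 1.24-fold at most.

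Nfil3, Per1 and Bhlhe40 varied more. Nfil3 stood at 37.8, 37.1, 22.8 and 20.4 CPM in libraries 1 to 4, a 1.85-fold range and a coefficient of variation of 31.1%, which only 1.23% of genes with at least 20 CPM exceeded. Per1 stood at 143, 137, 106 and 91.7 CPM (20.6%, exceeded by 3.10% of those genes) and Bhlhe40 at 913, 972, 831 and 677 CPM (15.1%, exceeded by 6.56%). In all 3 genes libraries 1 and 2 were both above libraries 3 and 4, a split that 24.6% of genes with at least 20 CPM had. The split held inside 4 of 5 gates for Nfil3, Per1 and Bhlhe40, and inside 5 of 5 for Nr1d2, which had it too, while Nr1d1 had it in all cells together but inside 0 of 5. It did not follow 1 gate, but the exceptions differed: Gzma for Nfil3 and Il17a for Per1 and Bhlhe40.

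As a description, 5 of 8 genes induced by the T cell receptor with at least 20 CPM had the same split, as did 4 of 4 kinase and ligase genes of the clock. Nr4a3, a nuclear receptor gene induced within minutes of receptor engagement, stood at 256, 216, 152 and 131 CPM, and Irf4, a transcription factor gene graded by receptor signal strength, at 47.9, 42.9, 33.8 and 30.4 CPM. Of 10 tissue-dissociation stress genes at that level 4 had it, such as Atf3 (37.5, 32.9, 16.8 and 22.2 CPM), while Fos was lowest in library 1, at 769 CPM, and highest in library 4, at 878 CPM. Of 7 glucocorticoid-responsive genes 1 had it, Sgk1 (39.1, 33.5, 30.0 and 25.1 CPM), whereas Tsc22d3, which encodes the glucocorticoid-induced protein GILZ, was lowest in library 1 (150 CPM) and highest in library 4 (201 CPM). The part of T cell receptor signals, dissociation or harvest hour in the spread of Nfil3, Per1 and Bhlhe40 was not tested.

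**Figure D2:**
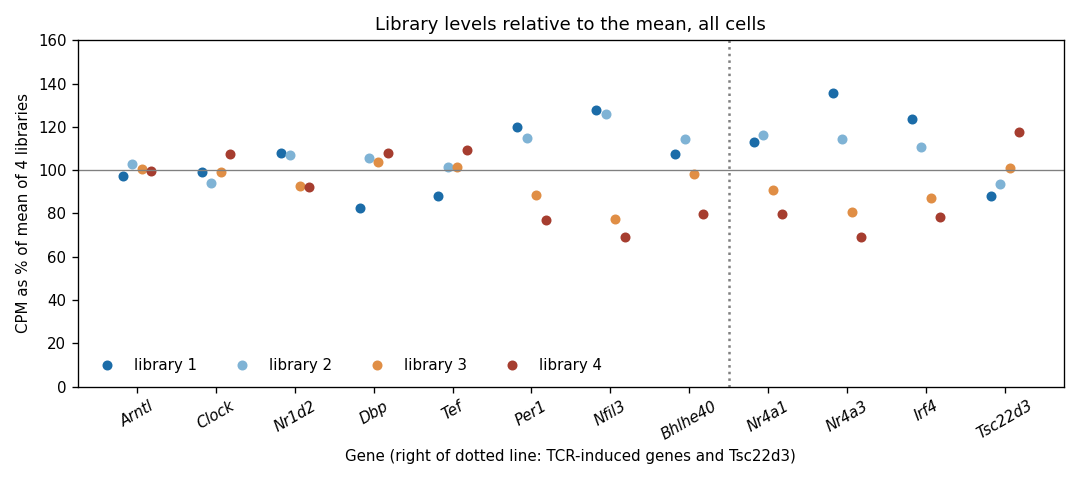
Level of each gene in all cells of each library as a percentage of its mean over the 4 libraries; points are libraries, with 8 clock genes left of the dotted line and 3 T cell receptor-induced genes and Tsc22d3 right of it. Libraries 1 and 2 lie above libraries 3 and 4 for Nr1d2, Per1, Nfil3, Bhlhe40, Nr4a1, Nr4a3 and Irf4, while the Arntl points lie together.

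Gates were then compared within libraries, by edgeR's quasi-likelihood test over all genes with library as a block. In Foxp3 cells against the rest, Nfil3 and Bhlhe40 were higher and Nr1d2, Dbp and Arntl lower, 5 of the 8 genes tested, beside 34.2% of all 9697 genes tested (18.3% higher and 15.9% lower). In Il17a cells against the rest, Nfil3, Bhlhe40, Arntl and Per1 were higher and Tef lower, 5 of 8 beside 26.4% of all genes (15.1% higher and 11.3% lower). In Ifng cells, Bhlhe40 and Tef were higher, 2 of 8 beside 10.8% of all genes (5.46% higher and 5.38% lower), and in Gzma cells none of the 8 passed (0 by DESeq2 as well, 3 at an unadjusted p under 0.05 by edgeR), beside 16.1% (8.53% higher and 7.53% lower). These comparisons share the rest as their control. Between gates that each need a UMI, 1 gene was higher and 2 lower in Foxp3 than in Ifng cells (beside 33.2% of all genes, 17.5% higher and 15.8% lower). Likewise 3 were higher and 2 lower in Il17a than in Ifng cells (beside 26.1%, 14.8% higher and 11.3% lower). Library values did not overlap for 4, 5, 2 and 1 of the 8 genes in Foxp3, Il17a, Ifng and Gzma cells against the rest, beside 29.5%, 23.9%, 12.8% and 15.6% of all genes. Against Ifng cells it was 4 of 8 in Foxp3 and 4 of 8 in Il17a cells, beside 29.5% and 23.6%. The median log2 fold change of the 8 genes was -0.24, 0.00146, -0.03 and 0.02 in Foxp3, Il17a, Ifng and Gzma cells against the rest, beside -0.02, -0.04, -0.00128 and 0.000121 over all genes. By library size alone in place of TMM scaling, the share of higher genes among those that passed fell from 57.2% to 46.6% in Il17a cells against the rest and from 56.7% to 42.6% against Ifng cells.

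**Figure D3:**
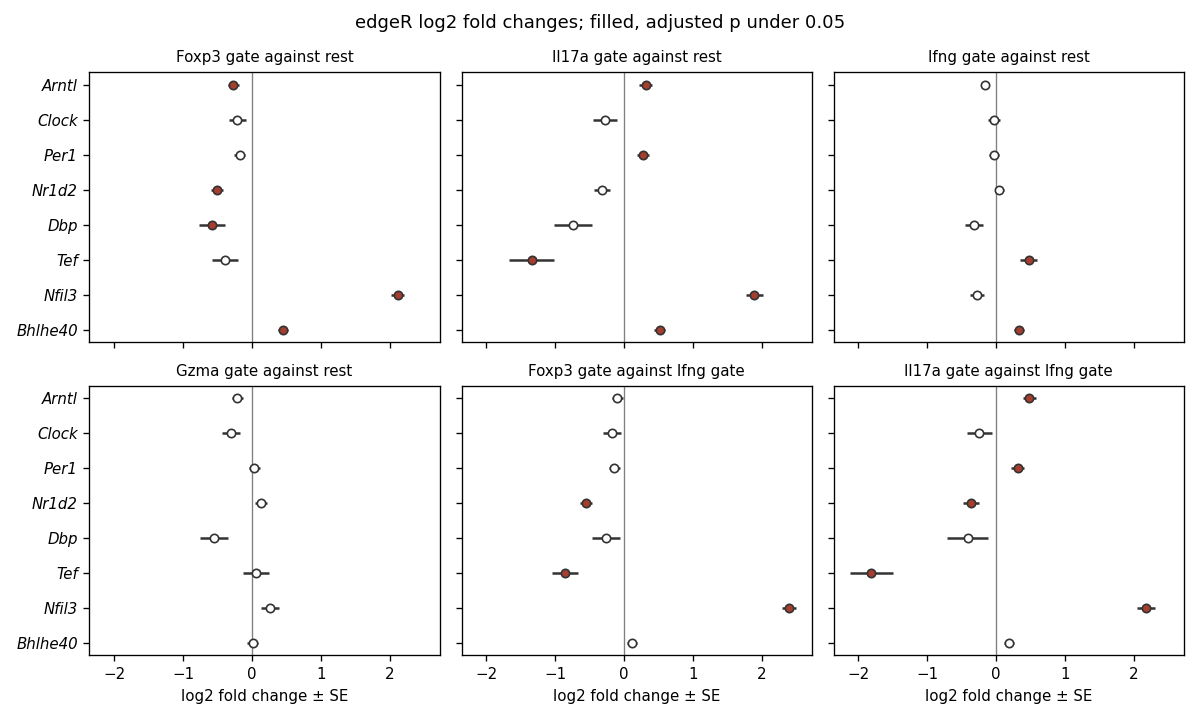
Log2 fold change of the 8 tested clock genes in each of 6 gate comparisons (horizontal axis, edgeR estimate with its SE as a bar; filled points have an adjusted p under 0.05). Nfil3 lies between 1.89 and 2.39 in the 4 comparisons of Foxp3 or Il17a cells, and Tef at -1.34 and -1.81 in those of Il17a cells.

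Of the 8 tested genes, Nfil3 had the largest fold changes in the 4 comparisons of Foxp3 or Il17a cells. Nfil3, the D-box repressor (chromosome 13, 52967209 to 52981073), stood in Foxp3 cells at 105, 119, 71.8 and 70.3 CPM in libraries 1 to 4 and in Il17a cells at 94.9, 100, 71.1 and 47.2 CPM. In the rest it stood at 27.9, 26.6, 15.4 and 15.9 CPM and in Ifng cells at 23.9, 20.2, 15.4 and 11.9 CPM. Every library of the first pair of gates lay above every library of the second pair. The log2 fold change against the rest was 2.11 ± 0.09 (SE; edgeR adjusted p = 4.8e-14) in Foxp3 and 1.89 ± 0.12 (4.1e-10) in Il17a cells, each higher in 4 of 4 libraries. Against Ifng cells it was 2.39 ± 0.10 (1.6e-14) and 2.17 ± 0.13 (5.0e-11). In Gzma cells, at 26.3 ± 5.04 CPM, and in Ifng cells against the rest (-0.28 ± 0.10, adjusted p = 0.0705) it did not pass. In Ifng cells it passed in 3 of 15 alternatives, such as with cells that met several gate conditions left out (-0.47, adjusted p = 0.0187), and with higher gate thresholds Gzma cells were at 0.56 (0.00104).

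Tef, a PAR bZIP activator of D-boxes (chromosome 15, 81802421 to 81826863), was higher in Ifng and lower in Il17a cells. It stood in Ifng cells at 13.1, 17.1, 15.6 and 15.8 CPM, above the rest in every library (10.0, 10.8, 11.4 and 11.5 CPM), with a log2 fold change of 0.47 ± 0.12 (edgeR adjusted p = 0.0127). In Il17a cells it stood at 1.81, 7.62, 3.95 and 5.13 CPM, which rested on only 2 to 6 UMIs per library, and fell by 1.34 ± 0.33 against the rest (adjusted p = 0.00390). Foxp3 cells were in between at 8.30 ± 1.78 CPM and did not pass against the rest (-0.39 ± 0.19, adjusted p = 0.130), though they did with higher gate thresholds (-0.71, adjusted p = 0.0300). Against Ifng cells Tef was lower in Foxp3 cells (-0.86 ± 0.19, adjusted p = 0.000999) and in Il17a cells (-1.81 ± 0.32, adjusted p = 0.000143), in 4 of 4 libraries each. The call in Ifng cells was lost in 5 of 15 alternatives, among them without library 2 (0.41, adjusted p = 0.0784) or library 3 (0.47, adjusted p = 0.0571), and that in Il17a cells against the rest without library 1 (-0.95, adjusted p = 0.0906) and without cells meeting several conditions (-1.16, adjusted p = 0.0652).

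Dbp, the second PAR bZIP gene (chromosome 7, 45705088 to 45710203), was highest in the rest, at 8.58, 13.8, 12.3 and 12.8 CPM. It stood in Foxp3 cells at 7.80, 7.41, 7.43 and 8.21 CPM, below all libraries of the rest (-0.58 ± 0.19, edgeR adjusted p = 0.0216). That call was lost in 6 of 15 alternatives, including at 2000 UMIs per cell, where the value was -0.19 (adjusted p = 0.676), and without library 2, 3 or 4 (-0.48, -0.56 and -0.57; adjusted p = 0.139, 0.0893 and 0.0552). In Il17a and Gzma cells Dbp stood at 6.56 ± 2.33 and 8.11 ± 3.05 CPM and did not pass (-0.74 ± 0.28 and -0.56 ± 0.20; adjusted p = 0.0525 and 0.0662), though they did in 5 and 4 of 15 alternatives.

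Hlf, the remaining PAR bZIP gene and no member of the 10, differed from Tef in direction in Il17a and in Ifng cells against the rest. It stood in Il17a cells at 108, 86.3, 100.7 and 108 CPM, against 44.98, 40.2, 36.1 and 37.3 CPM in the rest (1.38 ± 0.10, edgeR adjusted p = 8.4e-10). In Foxp3 cells it was lower than in the rest, at 26.6 ± 3.23 CPM (-0.55 ± 0.10, adjusted p = 0.000165), and so it was in Ifng cells (-0.36 ± 0.07, adjusted p = 0.00151). Il17a cells thus held more transcript of Nfil3 and Hlf and less of Tef than the rest, and Foxp3 cells more of Nfil3 and less of Hlf.

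**Figure D4:**
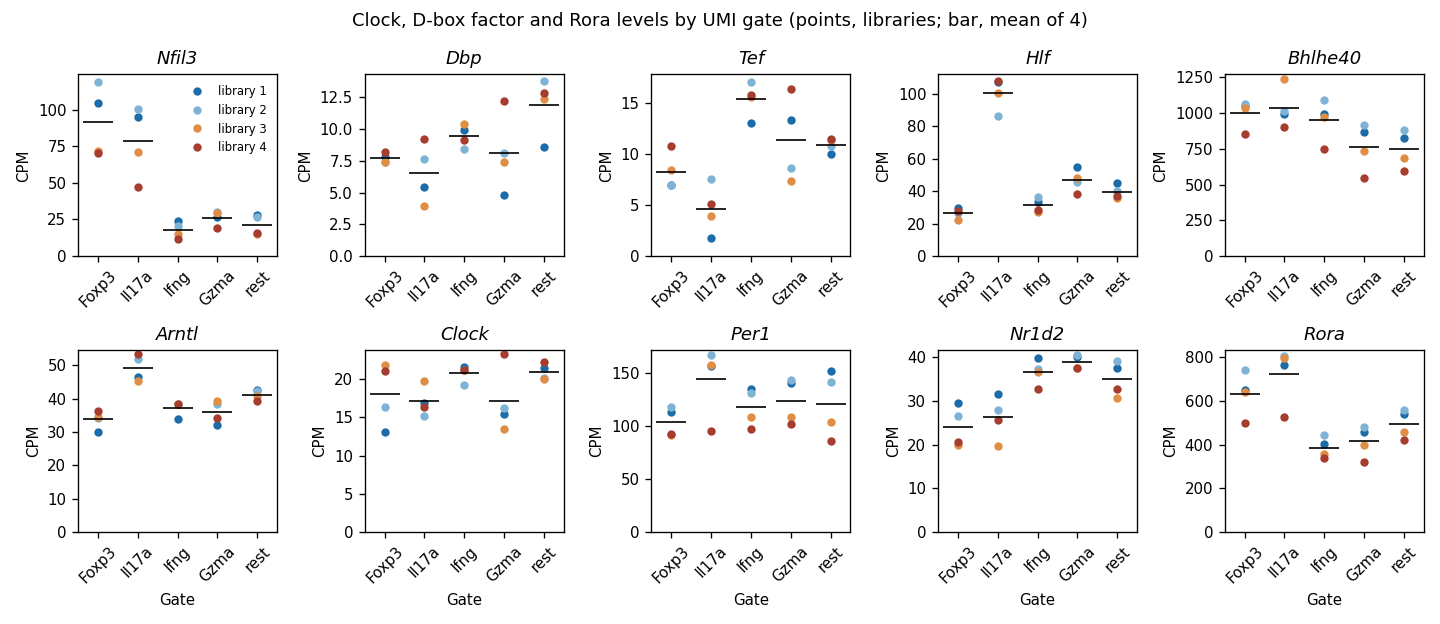
Levels in CPM of 8 clock genes, of the third PAR bZIP gene Hlf and of Rora in the 5 gates; points are libraries and the bar is the mean of 4. Nfil3 is at 47.2 CPM or more in every library of the Foxp3 and Il17a gates and at 29.9 CPM or less elsewhere, and the means of Hlf and Rora are highest in Il17a cells.

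In the activating limb, Arntl (chromosome 7, 113207465 to 113314126) was highest in Il17a cells, at 46.5, 52.0, 45.4 and 53.4 CPM, above all libraries of the rest (42.5, 42.2, 40.9 and 39.4 CPM). Foxp3 cells, at 30.0, 34.3, 34.7 and 36.4 CPM, lay below all libraries of the rest. The differences were small. Against the rest the log2 fold change was 0.31 ± 0.09 (edgeR adjusted p = 0.0266) in Il17a and -0.27 ± 0.08 (adjusted p = 0.00918) in Foxp3 cells, and each was lost in 5 of 15 alternatives. Without library 1, 2 or 4 the Il17a value was 0.36, 0.32 and 0.26 (adjusted p = 0.0618, 0.0642 and 0.155), and without library 1 or 2 the Foxp3 value was -0.18 and -0.27 (adjusted p = 0.165 and 0.0566). Against Ifng cells (37.3 ± 2.15 CPM) Arntl was higher in Il17a cells by 0.48 ± 0.10 (adjusted p = 0.000630), a call kept in all 15 alternatives. Clock, its partner, did not pass in any of the 6 comparisons, with means between 17.1 and 21.0 CPM and log2 fold changes from -0.30 ± 0.14 to -0.03 ± 0.09.

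Rora, which encodes a receptor that activates Arntl and other genes through the element that the REV-ERB receptors occupy, followed the gates. It stood at 722 ± 133 CPM in Il17a, 633 ± 100 CPM in Foxp3, 493 ± 63.9 CPM in the rest, 414 ± 70.7 CPM in Gzma and 386 ± 46.5 CPM in Ifng cells. Against the rest it was higher in Il17a and Foxp3 cells (edgeR log2 fold changes of 0.58 ± 0.06 and 0.38 ± 0.06, adjusted p = 2.6e-07 and 1.4e-05) and lower in Ifng and Gzma cells (-0.37 ± 0.06 and -0.27 ± 0.06, adjusted p = 7.3e-05 and 0.00209), in 4 of 4 libraries each. The paralogs Npas2 and Arntl2, which can stand in for Clock and Arntl, were nearly absent, with means of 0.03 and 0.01 CPM.

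In the repressing limb, Nr1d2 (REV-ERBβ; chromosome 14, 18204054 to 18239127) had its lowest mean in Foxp3 cells, at 29.6, 26.5, 19.8 and 20.5 CPM, below all libraries of the rest (37.5, 39.0, 30.6 and 32.8 CPM) and of Ifng cells (39.8, 37.3, 36.6 and 32.6 CPM). It fell by 0.50 ± 0.09 against the rest (edgeR adjusted p = 9.6e-05) and by 0.55 ± 0.09 against Ifng cells (adjusted p = 4.0e-05), and both calls were kept in all 15 alternatives. In Il17a cells, at 26.2 ± 4.91 CPM, it did not pass against the rest (-0.32 ± 0.12, adjusted p = 0.0737). It passed against Ifng cells (-0.37 ± 0.12, adjusted p = 0.0397), a call lost in 10 of 15 alternatives, including DESeq2 and each single library left out, with adjusted p between 0.0113 and 0.777. Gzma cells held 38.9 ± 1.58 CPM.

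Per1 (chromosome 11, 69095217 to 69109960), which also responds at once to cyclic AMP and glucocorticoids, differed little between gates beside its spread between libraries. It stood in Il17a cells at 157, 168, 158 and 95.4 CPM and in the rest at 153, 141, 104 and 85.9 CPM, ranges that overlapped, though each Il17a value was above the rest of its own library (0.28 ± 0.09, edgeR adjusted p = 0.0236). That call was lost in 5 of 15 alternatives, among them without library 2 or 3 (0.28 and 0.19; adjusted p = 0.0785 and 0.193) and by library size alone (0.23, adjusted p = 0.0554). Against Ifng cells it was 0.31 ± 0.09 (adjusted p = 0.0119; higher in 3 of 4 libraries), lost in 3 of 15 alternatives, among them without library 2 (0.29, adjusted p = 0.0774) or library 3 (0.26, adjusted p = 0.0736). In Foxp3 cells, at 104 ± 13.8 CPM, it did not pass (-0.17 ± 0.08, adjusted p = 0.0937), but did in 4 of 15 alternatives, such as without library 4 (-0.26, adjusted p = 0.0114). Nr1d1 and Per2 were too scarce for a test: Nr1d1 had 1 to 5 UMIs in each library of the Foxp3 and Il17a gates and Per2 had 0 to 2. Genes on the opposite strand overlap Nr1d1 (Thra), Dbp (Sphk2), Tef (Gm17597), Arntl (Gm45355) and Bhlhe40 (0610040F04Rik), and Gm43658 and Ube2n-ps1 overlap Clock on its own strand, in the GENCODE M21 annotation, and whether the counting used strand was not given in the sources used here.

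Bhlhe40, a repressor that competes with the Arntl and Clock pair at E-boxes, was higher in all 3 gates set by a lineage factor or cytokine. In Foxp3 cells it stood at 1048, 1064, 1039 and 853 CPM, in Il17a cells at 993, 1018, 1237 and 904 CPM and in Ifng cells at 995, 1095, 973 and 752 CPM, against 823, 880, 688 and 599 CPM in the rest. Only Il17a cells lay above all libraries of the rest, but each of the 3 gates was above the rest in 4 of 4 libraries. The log2 fold changes were 0.45 ± 0.07, 0.52 ± 0.08 and 0.33 ± 0.07 (edgeR adjusted p = 4.0e-05, 2.7e-05 and 0.00308), and the calls in Foxp3 and Il17a cells were kept in all 15 alternatives. The call in Ifng cells was lost without the library block (0.33, adjusted p = 0.293). Against Ifng cells Bhlhe40 did not pass in Il17a cells (0.18 ± 0.08, adjusted p = 0.0862), though it did in 5 of 15 alternatives. In Gzma cells the level was 765 ± 166 CPM (0.0102 ± 0.08, adjusted p = 0.959).

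The markers of other cell types summed to 352 to 1178 CPM in Foxp3, 202 to 364 CPM in Il17a, 228 to 697 CPM in Ifng, 175 to 209 CPM in Gzma cells and 320 to 687 CPM in the rest, with 7, 9, 5, 10 and 2 of the 23 at 0. Of the 10 markers tested, 3 were higher and 2 lower in Foxp3 and 4 higher and 4 lower in Il17a cells than in the rest. Some of them moved with Nfil3, while others of the same cell types went the other way or were nearly absent. Kit, a mast and progenitor cell receptor, stood at 11.2 CPM in Foxp3 and 12.3 CPM in Il17a cells against 1.72 CPM in the rest (edgeR log2 fold changes of 2.75 ± 0.38 and 2.75 ± 0.49, adjusted p = 3.6e-06 and 0.000197). Epcam, an epithelial adhesion gene, stood at 91.8 CPM in Foxp3 against 15.3 CPM in rest cells (2.61 ± 0.12, adjusted p = 1.0e-13) but at 3.14 CPM in Il17a cells. Sdc1, a plasma and epithelial cell gene, stood at 7.52 CPM in Il17a against 1.78 CPM in rest cells (2.13 ± 0.33, adjusted p = 3.8e-05). In contrast, the epithelial gene Cdh1 stood at 1.24 CPM in Foxp3 and 0.769 CPM in Il17a against 3.68 CPM in rest cells. The plasma cell genes Jchain and Mzb1 stood at 7.06 and 0.151 CPM in Il17a against 296 and 8.58 CPM in rest cells. The mast cell genes Cpa3 and Mcpt1 had means of 0.145 and 0.0104 CPM in all cells. Without cells that held at least 2 of the 23 markers, Nfil3 was higher than in the rest by 2.14 in Foxp3 and 1.98 in Il17a cells. Leaving out these 2881 cells kept all 20 gate calls of the clock genes except that of Nr1d2 between Il17a and Ifng cells (-0.17, adjusted p = 0.572). The gates lost unequal shares: 528 of 1535 Foxp3, 171 of 586 Il17a, 758 of 6599 Ifng, 177 of 1746 Gzma and 1247 of 11035 rest cells. This alternative therefore also changed the make-up of the gates.

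Other genes of the loop were read from lists, as counts of genes that passed among those tested. They stand beside 34.2%, 26.4%, 10.8% and 16.1% of all genes that passed in Foxp3, Il17a, Ifng and Gzma cells against the rest. With 4 to 12 genes a list and no test of a list as a whole, the counts are descriptions. Of 5 genes of the repressing limb (Cry1, Cry2, Per3, Ciart and Bhlhe41) 4 were tested. In Foxp3 cells against the rest 1 was lower, Per3, at 3.68 ± 1.07 against 8.43 ± 0.665 CPM (-1.13 ± 0.28, edgeR adjusted p = 0.00294), while in Gzma cells it was higher (13.96 ± 5.45 CPM, 0.72 ± 0.21, adjusted p = 0.0214). Cry1, a cryptochrome that blocks the Arntl and Clock pair, was lower in Ifng cells than in the rest (23.2 ± 2.01 against 27.7 ± 2.15 CPM, -0.28 ± 0.08, adjusted p = 0.0317) and higher in Il17a than in Ifng cells (0.55 ± 0.14, adjusted p = 0.00631). Of 7 genes listed as clock protein kinases and ligases, 2, 1, 1 and 1 were higher in Foxp3, Il17a, Ifng and Gzma cells than in the rest. In the same order, 0, 1, 0 and 0 were lower. The list also held Timeless, which is neither a kinase nor a ligase. Timeless was the 1 higher gene in Il17a, Ifng and Gzma cells (0.87 ± 0.18, 0.38 ± 0.11 and 0.69 ± 0.15, edgeR adjusted p = 0.00108, 0.0271 and 0.00212). Of 5 output genes, Hlf among them, 1, 2, 1 and 0 were higher and 1, 0, 1 and 0 lower. Nampt, the clock-controlled enzyme of NAD synthesis, was higher in Foxp3 cells (36.2 against 25.8 CPM, 0.52 ± 0.11, adjusted p = 0.000885), and Noct, a rhythmic phosphatase gene, in Ifng cells (27.2 against 19.1 CPM, 0.49 ± 0.09, adjusted p = 0.000963).

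Genes that respond to hormone, receptor or handling were counted in the same way, to be read against the same 34.2%, 26.4%, 10.8% and 16.1% of all genes. Of 8 glucocorticoid-responsive genes tested, 4 were higher and 1 lower in Foxp3 cells than in the rest, 1 and 2 in Il17a, 1 and 1 in Ifng and 1 and 1 in Gzma cells. In Foxp3 cells the higher ones were Cxcr4, Ddit4, Dusp1 and Sgk1, such as Ddit4 at 74.0 against 37.3 CPM, while Tsc22d3 did not pass there. Of 10 T cell receptor-induced genes, 5 were higher and 2 lower in Foxp3, 3 and 0 in Il17a, 3 and 0 in Ifng and 2 and 2 in Gzma cells. Irf4 was higher in all 4, from 0.46 ± 0.15 (edgeR adjusted p = 0.0431) in Gzma to 1.48 ± 0.16 (adjusted p = 4.1e-07) in Il17a cells. Of 12 dissociation stress genes, 3 were higher and 3 lower in Foxp3, 4 and 2 in Il17a, 1 and 0 in Ifng and 0 and 6 in Gzma cells. Their part in the levels of Nfil3, Per1 and Bhlhe40 was not tested.

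At a common depth of 2000 UMIs per cell, to which 20752 of the 21501 cells could be thinned (29, 12, 153, 75 and 480 cells of the Foxp3, Il17a, Ifng, Gzma and rest gates were too shallow), 25.6% of cells held no UMI of any of the 10 genes, 44.7% of 1, 23.4% of 2 and 5.51% of 3. The share with a Nfil3 UMI was 16.8% ± 3.74 (SD, n = 4 libraries) of Foxp3 and 12.8% ± 2.36 of Il17a cells, against 3.24% ± 1.15 of Ifng cells and 3.54% ± 1.26 of the rest. Without thinning these shares were 31.0%, 25.9%, 6.65% and 6.59%. Bhlhe40 was found in 74.5% ± 3.85 of Il17a, 67.1% ± 5.55 of Foxp3 and 57.1% ± 6.10 of rest cells (88.0%, 81.6% and 68.6% without thinning). Tef was found in 3.19% ± 0.285 of Ifng and 0.382% ± 0.441 of Il17a cells (6.53% and 2.56%). No cell type in the sort is known to lack these genes, so the share that free RNA gives was not measured.

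Within single cells at that depth, co-detection was compared with what independent detection gives, as a description over sparse counts. Cells of all gates were pooled in each library, so 2 genes that both differ between gates can depart from independence for that reason alone. The part of the gates in these ratios was not tested. Per1 and Bhlhe40 were found together in 14.8% of cells against 12.5%, a ratio of 1.20 ± 0.08 over the libraries that was above 1 in 4 of 4. Per1 was also found with Nr4a1 above independence (1.24 ± 0.11) and with Nr1d2 (1.29 ± 0.16), in 4 of 4 libraries each, and Bhlhe40 with Nfil3 (1.28 ± 0.13). Per1 was likewise above independence in 4 of 4 libraries with Nfil3 (1.31 ± 0.27), Arntl (1.15 ± 0.09), Fos (1.07 ± 0.03) and Tsc22d3 (1.04 ± 0.02), but not with Clock (2 of 4). The excess was not particular to 1 partner. Arntl and Clock, whose proteins act as a pair, were found together in 0.336% of cells against 0.326%, a ratio that ranged from 0.643 to 1.25. Nfil3 and Nr1d2 were below independence in 4 of 4 libraries, at ratios from 0.408 to 0.974.

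Genes whose levels were most like a clock gene were ranked over the 20 gate and library sums, centred within each library. The ranking covered 5432 genes with a mean of at least 20 CPM over the sums. It left out the gating genes, genes with provisional names (Gm, Rik and clone names), and receptor-segment, immunoglobulin, ribosomal protein and mitochondrial genes. These sums share libraries and UMI gates, so the correlations are descriptions. For Nfil3 they were S100a10, Sytl1 and Pon2 (Pearson r of 0.97, 0.97 and 0.96), and for Arntl Bzw1, Timm23 and Tmem176a (0.93, 0.92 and 0.91). For Nr1d2 they were Prrt1, Snhg12 and Fam204a (0.96, 0.96 and 0.95). For Per1 they were Tfg, Fnta and Lsp1 (0.92, 0.89 and 0.89), and for Bhlhe40 Ctnna1, Rab1a and Bsg (0.88, 0.87 and 0.85). The lowest values were those of Clock, with Smarca2, Trappc2l and Rasal3 (0.82, 0.79 and 0.78).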

How the data were processed

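Per the submitters' processing notes, the authors made the deposited UMI counts with Cell Ranger 3.0.2 against mm10. Each matrix holds whole counts per gene and cell, and its lowest barcode held 502 UMIs, so barcodes had been filtered before deposit. Barcodes with fewer than 500 genes, fewer than 1000 UMIs or more than 10% mitochondrial UMIs were dropped (22534 stayed). The 1033 highest Scrublet scores (scanpy 1.11.5), 0.8% per 1000 barcodes, were removed. UMIs were summed per library and gate (20 sums) and tested with edgeR 4.0.16 (TMM, filterByExpr, glmQLFit and glmQLFTest, library as a block, 12 residual degrees of freedom), with Benjamini-Hochberg adjustment at 0.05 over 9697 genes in each of 6 comparisons, after a check on simulated data. The check simulated Foxp3 cells against the rest, and called 62 of 100 genes changed 1.5-fold and 94 of 100 changed 2-fold. Of its 162 calls 6 were false, and its simulated libraries differed in depth only. CPM uses all UMIs of a sum, and r uses log2(CPM + 1). The gating genes were not findings. Sums of 1 library pair by construction, which is why library is a block.

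Clock genes and lists were chosen with earlier results of these data known. Named genes were the 10 clock genes, up to 4 of each list by adjusted p, plus a few for context chosen after their values were seen, and the 3 genes most like each clock gene of at least 20 CPM. Alternatives covered gates, cells, depth, scaling, DESeq2 1.42.0, filter, block and each library left out. A withheld item is not reported here.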

Additional observations from a re-analysis of the deposited data

Results flagged for a closer look

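In 4 of 60 sets of 4 library values of the clock genes (10 genes, in all cells and in 5 gates) the gap between 1 library and its nearest neighbour exceeded Dixon's 95% critical share of the whole range. Chance gives about 1 in 20. Per1 in Il17a cells stood at 95.4 CPM in library 4, against 157 to 168 CPM in the others. Bhlhe40 in Foxp3 cells stood at 853 CPM in library 4, against 1039 to 1064 CPM. Dbp in all cells stood at 8.48 CPM in library 1, against 10.7 to 11.1 CPM. Arntl in Ifng cells stood at 34.1 CPM in library 1, against 38.3 to 38.4 CPM.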

How the results depend on the processing

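Of the 20 calls of clock genes over the 6 comparisons, 11 were kept in all 15 alternatives (4 of them for Nfil3), and no called value changed sign. At 2000 UMIs per cell, 3 clock genes passed in Foxp3 and 1 in Ifng cells against the rest (5 and 2 as reported), and 2177, 803 and 1023 genes in all passed in Foxp3, Il17a and Gzma cells (3321, 2557 and 1557), with 2142 and 928 for Foxp3 and Il17a against Ifng cells (3222 and 2533); thinning leaves fewer UMIs. Thinned levels in all cells were 2.41 CPM for Nr1d1, 2.12 for Per2, 38.4 for Nr1d2, 11.6 for Dbp, 13.0 for Tef, 41.7 for Arntl and 21.4 for Clock. Without cells meeting several conditions, 3 clock genes passed in Foxp3 cells, and 1580 and 583 genes in all in Il17a and Ifng cells (1051 in Ifng cells as reported). Without cells with markers of other types, 1439 genes passed in Il17a cells against the rest and 1436 against Ifng cells. With no replicate block, 0 clock genes and 393 genes in all passed in Ifng cells, 977 genes in Gzma cells, and 3 clock genes between Il17a and Ifng cells. In Gzma cells 3 clock genes passed with higher gate thresholds and 1 with no filter on low counts or without 140 cells with narrower markers of other types, an alternative chosen after seeing the data. With 1 library left out, clock genes that passed numbered 3 to 5 in Foxp3, 3 to 4 in Il17a, 1 to 3 in Ifng and 0 to 1 in Gzma cells against the rest and 3 to 4 between Il17a and Ifng cells, and genes in all 678 to 877 in Ifng cells. The cause of these shifts was otherwise not tested. Depth limits Nr1d1, Per2 and, in Il17a cells, Tef and Dbp.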
